A study of Mus musculus with 9 samples.

Results

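Retinas carrying a single floxed copy of Tet1, Tet2 and Tet3 together with a Cre transgene were compared with Cre negative (Cre−) retinas by bulk RNA-seq at postnatal day 21 (P21). Libraries were chosen by the genotype in their labels, which gave 6 of the 9 libraries of the series, 3 from triple heterozygotes (tHet) and 3 from Cre− mice. The other 3 libraries, from retinas homozygous for the floxed alleles with the same transgene (Tet tcKO), entered the fit to share an estimate of the spread. Their values are given beside those of the compared genotypes for only part of the genes described. All mice are labelled C57 BL/6J, and each library was made from the whole retinas of 2 animals.

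The tHet genotype was Tet1 loxp/+, Tet2 loxp/+ and Tet3 loxp/+ with a transgene that expresses Cre and GFP in retinal progenitor cells and is mosaic. The Cre+ lines, tHet and Tet tcKO alike, were bred to carry 2 copies of this transgene, which lowers mosaicism. The Cre− group is labelled WT and was bred separately from parents without Cre, at the same age. A difference between tHet and Cre− could therefore belong to the loss of 1 allele of each Tet gene, to the transgene with its GFP, or to the breeding line, and these cannot be told apart in this design. No group carried the transgene without floxed alleles among the 9 libraries.

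TET enzymes oxidise 5-methylcytosine to 5-hydroxymethylcytosine and further forms, which are steps toward the unmodified base at CG dinucleotides. Retinal progenitors give rise to the neurons and the Müller glia of the retina, so a recombined progenitor can pass its deletion to any of them. The ciliary body and its epithelium border the retina and secrete matrix of the vitreous, including collagens II, IX and XI, fibrillins and opticin.

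In tHet retinas, 9 of 21330 tested genes were called (0.0422%), and all 9 rose. A call needed a limma adjusted p under 0.01 and a log2 fold change (log2FC) of 1 or more in size. They were Abcd4, Optc, Fbln1, Vcan, Fbn2, Col9a1, Gja1, Col18a1 and the lincRNA 9430037G07Rik. No gene was called lower by limma as reported, while 206 were lower at an unadjusted p under 0.05. The count-based tests called 0 to 5 lower, and alternative limma fits called up to 9. Optc, Fbln1, Vcan, Fbn2, Col9a1 and Col18a1 encode matrix proteins.

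Reads counted on genes ranged from 9627927 to 21108256 over the 6 libraries, where 1 read was worth between 0.0474 and 0.104 CPM, a count divided by the library total and scaled up. A level of 3 reads, between 0.142 and 0.312 CPM, was taken as detectable, a floor that covers counting error only. Across genes on the log2(CPM + 0.5) scale, r was 0.966 to 0.987 for pairs within a genotype and 0.959 to 0.986 for pairs across genotypes. The first principal component of the 6 libraries held 54.5% of the variance and did not separate the genotypes. On it, Cre− replicate 1 and tHet replicate 3 stood together at −63.5 and −34.8, and the other 4 libraries lay between −10.8 and 52.7. These 2 libraries also had Xist at 1.24 and 2.42 CPM, against 647 to 1272 CPM in the other 4, so the pools differed in the sex of their animals. The ribosomal RNA gene CT010467.1 took 3.72% of the reads in tHet replicate 3 and at most 0.226% in the other 5 libraries, and it took 28.7% in replicate 3 of Tet tcKO, which enters the shared estimate of the spread. The p-values measure the spread between pooled libraries of 2 animals each.

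The targeted genes were read first. Tet1 was at 51.7, 57.6 and 54.5 CPM in Cre− and at 49.0, 68.2 and 37.3 CPM in tHet (log2FC −0.13, standard error 0.23, limma adjusted p = 1). Tet2 was at 113, 188 and 167 CPM in Cre− and at 199, 226 and 117 CPM in tHet (log2FC 0.19, standard error 0.26, limma adjusted p = 1). Tet3 was at 213, 268 and 223 CPM in Cre− and at 268, 288 and 155 CPM in tHet (log2FC −0.03, standard error 0.25, limma adjusted p = 1). For all 3 genes the ranges of the genotypes overlapped, and none passed the test. These are reads over whole genes, so reads from exons that remain after recombination are included and the floxed exons were not separated. The whole-gene levels thus do not check the tHet label. In Tet tcKO, Tet3 was at 108, 152 and 99.2 CPM, below every Cre− and tHet library (log2FC −0.99 versus Cre−, limma adjusted p = 0.0174). Its whole-gene level was thus lower in the homozygotes, while Tet1 and Tet2 were not lower there (log2FC 0.22 and 0.25 versus Cre−). The paper reports that the share of reads properly spliced into the floxed exons fell with Cre dosage across these genotypes.

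Among 19 genes of the DNA methylation cycle (methyltransferases, TET enzymes, base excision and methyl-binding proteins), none was called. Only Dnmt3a, a de novo DNA methyltransferase, was at an unadjusted p under 0.05, with 505, 517 and 603 CPM in Cre− and 759, 865 and 711 CPM in tHet. Of all tested genes, 3.58% were higher and 0.966% lower at that p. The libraries of Dnmt3a did not overlap, but it did not pass the test (log2FC 0.52, standard error 0.25, limma adjusted p = 1). With any 1 library left out, none of the 19 was at an unadjusted p under 0.05. The median log2FC of this list was 0.02 (−0.04 with TMM scaling), beside 0.06 over all tested genes.

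Abcd4, a lysosomal transporter needed for the release of vitamin B12, had the largest log2FC of the 9 called genes. It was at 15.7, 19.1 and 18.0 CPM in Cre− and at 186, 486 and 241 CPM in tHet, a mean of 17.6 ± 1.75 against 304 ± 159.7 CPM (SD, n = 3 each). Every tHet library lay above every Cre− library, and the lowest of them was far above the Cre− range. The mean level was 17.3-fold higher in tHet (log2FC 3.96, standard error 0.33, limma adjusted p = 2.11e-06). Tet tcKO libraries, which carry the same transgene, were at 83.8, 225 and 160 CPM, and the log2FC of Tet tcKO versus tHet was −0.95 (limma adjusted p = 0.0999).

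Abcd4 (ENSMUSG00000021240.6) spans 84601464 to 84617413 of chromosome 12 in GRCm38, on the minus strand.

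Optc encodes opticin, a small leucine-rich proteoglycan of the vitreous made by the ciliary epithelium. It was at 7.42, 1.21 and 5.74 CPM in Cre− and at 67.1, 42.1 and 98.9 CPM in tHet, with no overlap. Its mean level was 14.5-fold higher in tHet (log2FC 3.91, standard error 0.45, limma adjusted p = 0.000311). Tet tcKO libraries were at 32.9, 84.9 and 34.5 CPM.

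Fbln1 encodes fibulin-1, a glycoprotein of basement membranes and elastic fibres. It was at 1.47, 0.891 and 1.22 CPM in Cre− and at 11.0, 7.58 and 16.6 CPM in tHet, again without overlap. The mean was 9.85-fold higher in tHet (log2FC 2.80, standard error 0.39, limma adjusted p = 0.00357). In Tet tcKO it was at 6.29, 18.1 and 5.36 CPM.

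Vcan encodes versican, a large hyaluronan-binding proteoglycan of the vitreous and interphotoreceptor matrix. Its Cre− libraries were at 8.01, 9.29 and 10.1 CPM and its tHet libraries at 30.7, 26.9 and 49.8 CPM. The mean was 3.93-fold higher in tHet (log2FC 1.87, standard error 0.27, limma adjusted p = 0.00509). Fbn2, which encodes the microfibril protein fibrillin-2, was at 4.36, 5.47 and 5.20 CPM in Cre− and 13.5, 22.9 and 25.6 CPM in tHet. Its mean was 4.12-fold higher (log2FC 1.90, standard error 0.28, limma adjusted p = 0.00509). The genotypes did not overlap for either gene, and Tet tcKO libraries lay within 27.7 to 54.4 CPM for Vcan and within 17.1 to 29.7 CPM for Fbn2.

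Col9a1, which encodes a chain of the vitreous and cartilage collagen IX, was at 34.1, 34.3 and 53.2 CPM in Cre− and at 94.5, 109.6 and 129 CPM in tHet. Its mean was 2.74-fold higher in tHet (log2FC 1.46, standard error 0.22, limma adjusted p = 0.00509). Its Tet tcKO libraries, at 207, 218 and 212 CPM, were above all tHet libraries (log2FC 0.94 in Tet tcKO versus tHet, limma adjusted p = 0.0108, short of the call). Col18a1, which encodes the basement membrane collagen XVIII, was at 25.4, 20.5 and 28.6 CPM in Cre− and at 65.6, 61.3 and 102.8 CPM in tHet. Its mean was 3.08-fold higher (log2FC 1.58, standard error 0.25, limma adjusted p = 0.0087), and Tet tcKO libraries were at 42.5, 62.2 and 36.5 CPM. Neither gene had overlapping tHet and Cre− libraries.

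Gja1 encodes connexin 43, a gap junction protein of glia, vessels and the pigmented and ciliary epithelia. It was at 10.9, 3.69 and 11.6 CPM in Cre− and at 33.6, 38.4 and 62.6 CPM in tHet, with no overlap. The mean was 5.14-fold higher in tHet (log2FC 2.39, standard error 0.36, limma adjusted p = 0.00509), and Tet tcKO libraries were at 32.0, 35.6 and 16.7 CPM. The lincRNA 9430037G07Rik was read in a single Cre− library, at 0.318 CPM, and was listed at 0 in the other 2. No Cre− library thus reached 0.5 CPM, the level that 3 of the 9 libraries had to reach for a test. The gene entered the test through tHet and Tet tcKO libraries only, so its direction was tied to the filter. It was at 2.09, 3.74 and 3.70 CPM in tHet and at 4.99, 9.03 and 6.32 CPM in Tet tcKO. Its log2FC was 2.60 (standard error 0.35, limma adjusted p = 0.00285). The size of this value rests on the pseudocount, and its exons overlap Gm23017 on the same strand and Gm29603 on the other, so its reads are uncertain.

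**Figure D1:**
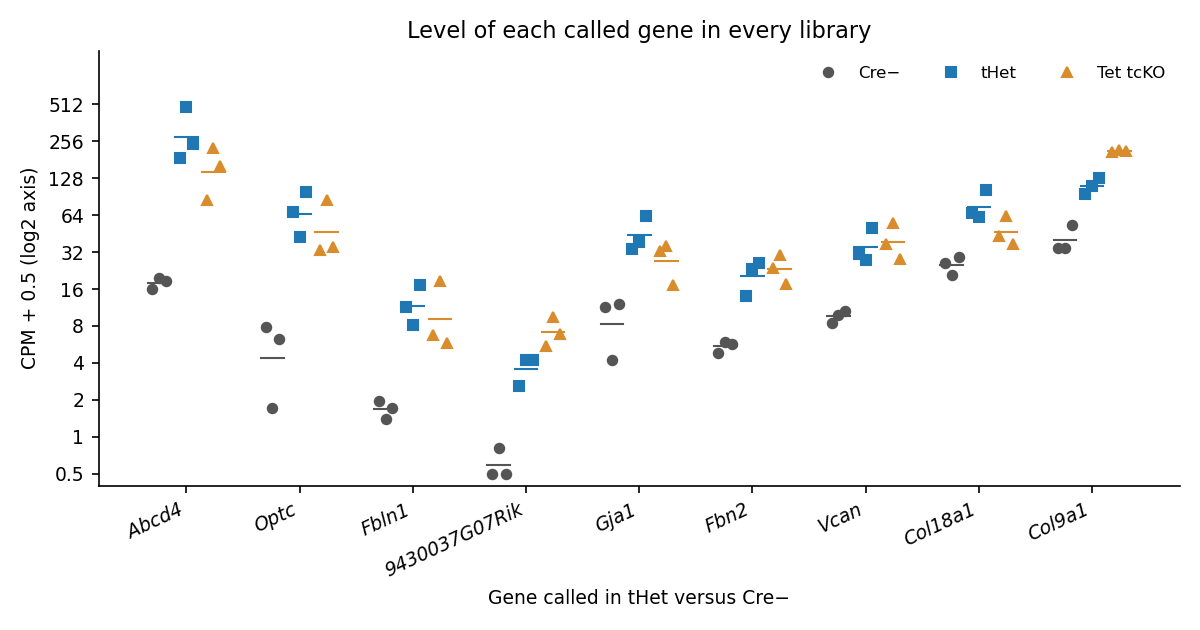
Level of the 9 called genes in each library, as CPM + 0.5 on a log2 axis, with circles for Cre−, squares for tHet and triangles for Tet tcKO (n = 3 each), and short lines for the means on that scale. Each tHet square lies above every Cre− circle of the same gene, from Abcd4 at 186 to 486 CPM in tHet down to 9430037G07Rik at 2.09 to 3.74 CPM.

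Apart from Col9a1, at 0.0108, the called genes had limma adjusted p values between 0.0999 and 0.867 in Tet tcKO versus tHet. A p of this size does not show that the levels of these genotypes were alike. The comparisons of tHet and of Tet tcKO with Cre− share the Cre− libraries. None of the 9 genes lies within 5 Mb of Tet1, Tet2 or Tet3. Within these windows, none of 86, 82 and 141 tested genes was called, and their median log2FC values were 0.03, 0.05 and 0.09. At an unadjusted p under 0.05, the windows held 0, 6 and 6 genes higher in tHet and 1, 0 and 2 lower. Over all tested genes, 3.58% were higher and 0.966% lower at that p. With TMM scaling, 6, 2 and 3 genes of the windows were lower. With 1 library left out, the Tet2 window held 2 higher without Cre− replicate 1 or tHet replicate 2, and up to 7. The Tet3 window held 2 higher without either of these libraries, 16 without Cre− replicate 2 and 19 without tHet replicate 3. The Tet1 window held up to 4 higher, without Cre− replicate 2. The medians of the Tet1 and Tet2 windows were −0.02 and −0.00 with TMM scaling.

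How many genes were called varied with the settings. Abcd4 was called in all 21 alternatives, whereas the other 8 genes were called in between 9 and 15 of them. With TMM scaling, with upper-quartile scaling, with only the 6 compared libraries in the fit or with edgeR's quasi-likelihood test on recovered reads, Abcd4 was the only call. The other 8 genes kept a positive log2FC in every alternative, and their highest adjusted p ranged from 0.0793 for Fbln1, Vcan and 9430037G07Rik to 0.188 for Gja1. Without Cre− replicate 3 there were 4 calls, and without tHet replicate 3 there were 17.

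**Figure D2:**
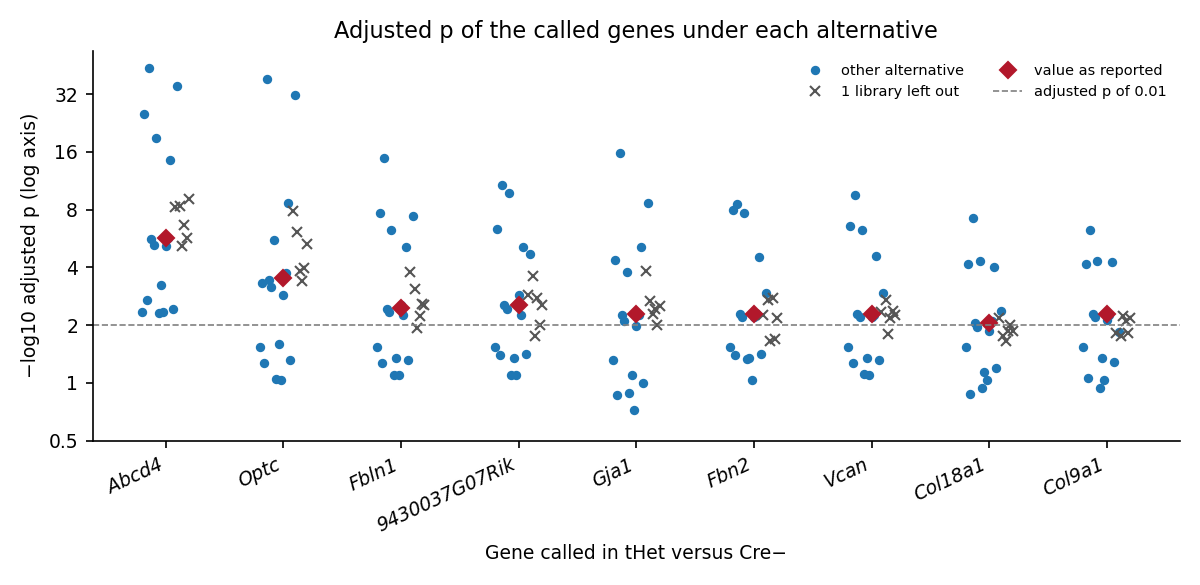
Adjusted p of each called gene as −log10 on a log axis, under the 21 alternatives (circles, with crosses where 1 library was left out) and as reported (diamonds); the dashed line is an adjusted p of 0.01. All points of Abcd4 lie above the line, and each other gene has points on both sides of it.

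The 250 bases before the RefSeq transcription start are shown for Optc, Vcan and Col9a1, 3 matrix genes that rose in tHet, because they differ in the number of CG dinucleotides, the base pairs that TET enzymes act on. Capitals mark each CG, which reads the same on both strands.
Optc (chr1:133908000-133908249, minus strand, GRCm38.p6): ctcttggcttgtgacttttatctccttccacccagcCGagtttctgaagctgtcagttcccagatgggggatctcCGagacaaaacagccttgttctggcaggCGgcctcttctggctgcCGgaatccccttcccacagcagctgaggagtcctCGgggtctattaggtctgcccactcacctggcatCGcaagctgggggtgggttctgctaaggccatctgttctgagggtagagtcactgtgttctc
Vcan (chr13:89742513-89742762, minus strand, GRCm38.p6): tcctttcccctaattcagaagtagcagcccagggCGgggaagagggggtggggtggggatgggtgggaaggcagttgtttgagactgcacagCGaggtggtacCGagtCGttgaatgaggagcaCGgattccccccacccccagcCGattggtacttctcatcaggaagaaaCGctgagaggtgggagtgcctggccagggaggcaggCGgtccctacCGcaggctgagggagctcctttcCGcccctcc
Col9a1 (chr1:24177360-24177609, plus strand, GRCm38.p6): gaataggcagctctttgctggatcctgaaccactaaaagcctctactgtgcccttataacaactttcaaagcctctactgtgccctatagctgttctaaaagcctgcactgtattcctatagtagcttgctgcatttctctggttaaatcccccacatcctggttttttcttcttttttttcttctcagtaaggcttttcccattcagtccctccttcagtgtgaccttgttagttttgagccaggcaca
These windows held 6 CG in Optc, 10 in Vcan and 0 in Col9a1. Of the 32851 promoter entries in the RefSeq table, 50.4% held at least 6 and 37.8% at least 10, and the median was 6. Of the 9 called genes, 7 were matched by symbol in the table, with between 0 and 14 CG in an entry. DNA methylation was not analysed here.

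Of the 9 called genes, 6 were on the list of vitreous and pericellular matrix genes. The lists were chosen with earlier results of these data known, so this overlap is a description and not independent support. Of the 19 tested genes of the matrix list, 14 were higher at an unadjusted p under 0.05, and none was lower. Among the 14, Mfap4 was at 0.0589 to 0.338 CPM in Cre−, so it passed the filter of 0.5 CPM only through tHet and Tet tcKO libraries. At that p, 3.58% of all tested genes were higher. The libraries of 13 of the 19 did not overlap, all higher in tHet, beside 5.78% of all tested genes. The median log2FC of the list was 1.39, beside 0.06 over all tested genes. In the alternatives examined for lists, 13 or 14 of the 19 were at that p and higher, while none was called with TMM or upper-quartile scaling. The summed level of the list was 185, 172 and 229 CPM in Cre− and 464, 483 and 651 CPM in tHet.

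Among the matrix genes that did not pass the test were fibrillar collagen and microfibril genes. Col2a1, the main collagen of vitreous, was at 22.9, 26.8 and 29.8 CPM in Cre− and 37.2, 49.0 and 56.7 CPM in tHet (log2FC 0.82, limma adjusted p = 0.348). Col11a1, its partner in heterotypic fibrils, was at 6.95, 6.49 and 11.2 CPM against 19.7, 21.0 and 24.6 CPM (log2FC 1.39, limma adjusted p = 0.0615). Fbn1, the fibrillin-1 gene, was at 19.0, 17.7 and 20.7 CPM against 36.9, 47.2 and 58.9 CPM (log2FC 1.27, limma adjusted p = 0.093). All 3 had separate libraries, as did the collagen IX chain genes Col9a2 and Col9a3 (log2FC 1.07 and 1.39, limma adjusted p = 0.183 and 0.0615). Ltbp2, a microfibril protein of the ciliary zonule, was at 1.24, 0.509 and 0.675 CPM in Cre− and at 6.70, 5.71 and 7.67 CPM in tHet. The libraries did not overlap, and the gene was short of the call (log2FC 2.49, standard error 0.42, limma adjusted p = 0.0135). In Tet tcKO it was at 1.13, 5.73 and 1.63 CPM. By contrast, the perineuronal proteoglycan and link protein genes Acan, Bcan, Ncan and Hapln1 had log2FC values between −0.13 and 0.18 with overlapping libraries. Libraries also overlapped for Emilin1, with the lowest log2FC of the list at −0.50, and for Mfap2, with 0.81 (limma adjusted p = 0.848).

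**Figure D3:**
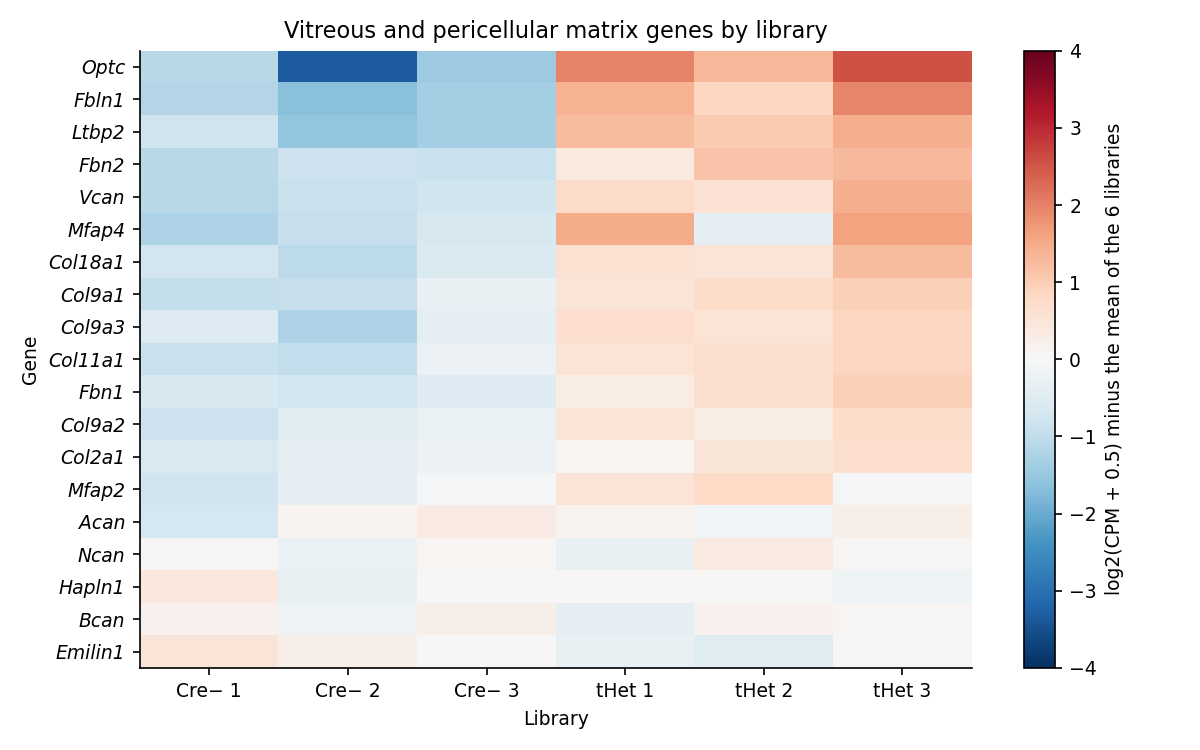
Heat map of the 19 vitreous and pericellular matrix genes (rows, ordered by log2FC) in the 6 libraries (columns), coloured by log2(CPM + 0.5) minus the mean of the 6 libraries. The rows from Optc, with a log2FC of 3.91, to Col2a1, with 0.82, are below the mean in the Cre− columns and, except for Mfap4 in tHet 2, above it in the tHet columns.

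Over all collagen genes, 43 passed the filter and 2 were called, beside 0.0422% of all tested genes. The median log2FC of the 43 was 0.48. At an unadjusted p under 0.05 were 18, all higher in tHet, beside 3.58% of all tested genes. The 18 became 12 without Cre− replicate 1. Besides the vitreous collagens these included the type IV chain genes Col4a6 and Col4a5, which build basement membranes. Col4a6 was at 1.00, 2.35 and 2.63 CPM in Cre− and 5.54, 7.17 and 9.0 CPM in tHet (log2FC 1.68, limma adjusted p = 0.0411). Its Tet tcKO libraries were between 20.2 and 28.0 CPM, above every tHet library. Col8a1, of endothelial and Descemet basement membranes, was at 26.5, 9.16 and 17.8 CPM in Cre− and 34.0, 41.9 and 42.5 CPM in tHet (log2FC 1.24, limma adjusted p = 0.32), and its Tet tcKO libraries were between 11.1 and 24.1 CPM.

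Of the 8 tested ciliary epithelium genes, 1 was called, Optc, which is also on the matrix list. At an unadjusted p under 0.05 were 5, all higher in tHet (5 or 6 with 1 library left out). Over all tested genes, 0.0422% were called and 3.58% were higher at that p. The median log2FC of the 8 was 1.20. Zic1, a zinc finger transcription factor, was at 5.89, 4.96 and 6.14 CPM in Cre− and 13.8, 16.3 and 28.7 CPM in tHet (log2FC 1.64, limma adjusted p = 0.0135). Its exons overlap those of Zic4 on the other strand, and Zic4 had a log2FC of 1.58 (limma adjusted p = 0.109). Wfdc1, a secreted protease inhibitor family gene, and Otx1, a homeobox gene of the ciliary margin, had log2FC values of 1.21 and 1.19 (limma adjusted p = 0.35 and 0.465), with no overlap of libraries in either. Otx1 was at 0.177 to 0.338 CPM in Cre−, so it passed the filter of 0.5 CPM only through tHet and Tet tcKO libraries. The water channel genes Aqp1 and Aqp5 had negative log2FC values of −0.60 and −0.48 and did not pass the test, although the libraries of Aqp1 did not overlap.

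The summed level of the 8 ciliary genes was 69.6, 60.6 and 62.6 CPM in Cre− and 129, 113 and 161 CPM in tHet, and Optc made up most of that difference. Without Optc, the other 7 genes summed to 62.2, 59.4 and 56.9 CPM in Cre− and to 61.6, 70.8 and 62.3 CPM in tHet, with overlapping ranges, while their median log2FC was 1.19. Aqp1, with means of 48.3 CPM in Cre− and 33.4 CPM in tHet, was the highest of the 7. Its lower level in tHet counts in the sum against Zic1, Zic2, Zic4, Wfdc1 and Otx1, all separate and higher in tHet. In Tet tcKO, Aqp1 was at 0.891, 12.4 and 5.24 CPM (log2FC −3.38 versus Cre−, limma adjusted p = 0.000148). Zic1 was at 25.9, 31.8 and 25.7 CPM there. The overlap of the sums therefore does not show that the other ciliary genes were unchanged. The part of these cells in the matrix result was not tested. In whole-tissue RNA, more cells of a type and more RNA per cell cannot be told apart. Msx1, a ciliary margin homeobox gene, was below the filter.

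Markers of other tissues that could be carried with a dissected retina were read in the same way. Of 13 pigment epithelium and melanocyte genes, none was called, and their median log2FC was 0.69. At an unadjusted p under 0.05, 7 were higher in tHet, beside 3.58% of all tested genes. The 7 became 4 with TMM or upper-quartile scaling or without tHet replicate 1 or 3, 3 without Cre− replicate 2, where the median was 0.34, and 9 without Cre− replicate 1. The summed level was 257, 75.5 and 160.1 CPM in Cre− and 282, 220 and 309 CPM in tHet, with Cre− replicate 2 lowest of these. In Tet tcKO it was 86.2, 85.6 and 61.7 CPM. Dct, an enzyme of melanin synthesis, was at 21.7, 6.55 and 29.2 CPM in Cre− against 52.0, 36.9 and 87.2 CPM in tHet (log2FC 1.74, limma adjusted p = 0.123). Its Tet tcKO libraries were at 16.6, 17.7 and 15.4 CPM. Tyr, the rate-limiting enzyme of melanin synthesis, had a log2FC of 1.43 (limma adjusted p = 0.629). Genes of the retinoid cycle mark the pigment epithelium. Among them, Lrat, a retinol acyltransferase, was at 22.7, 6.43 and 11.5 CPM in Cre− and 29.8, 22.9 and 25.8 CPM in tHet. Its libraries were separate (log2FC 1.09, limma adjusted p = 0.785), and those of Tet tcKO were at 4.22, 4.41 and 2.47 CPM. Rgr, an opsin, and Ttr, the carrier transthyretin, were at an unadjusted p of 0.0431 and 0.0415, with log2FC values of 0.69 and 0.80 and overlapping libraries. Rpe65, the retinoid isomerase, and Best1, a chloride channel, had log2FC values of 0.32 and −0.25, also with overlapping libraries. The part of these cells in the matrix result was not tested.

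Of 10 fibroblast and meninges genes, none was called and 2 were higher at an unadjusted p under 0.05, beside 3.58% of all tested genes. They were Slc6a13, a GABA and taurine transporter, and Ogn, a small leucine-rich proteoglycan, with log2FC values of 1.56 and 1.48 (limma adjusted p = 0.275 and 0.322). Col1a1, Col3a1 and Dcn had log2FC values of −0.05, 0.12 and 0.06. Dcn was near the floor, with means of 0.343 CPM in Cre− and 0.392 CPM in tHet. Col1a2 had a log2FC of 0.45 with separate libraries, and Postn one of −0.42, also with separate libraries. Pdgfra, Mgp and Igf2 had log2FC values of 0.36, 0.24 and −0.10 with overlapping libraries. The median of the list was 0.18. The 16 tested lens genes had a median of −0.50, with 1 of them, Cryba1, at an unadjusted p under 0.05 and lower in tHet, and overlapping libraries in all 16. The count was 7 without Cre− replicate 1 and 6 without tHet replicate 3, 13 without both, and 0 with a median of 0.07 without tHet replicate 2. Their summed level ranged from 22.7 to 107.3 CPM in Cre− and from 8.83 to 65.5 CPM in tHet. Of 5 blood genes, 2 were lower at that p (0 without tHet replicate 2), beside 0.966% of all tested genes. The median of the blood genes was −0.42 (−0.09 without tHet replicate 2). Myelin genes had a median of −0.10 over 4 tested genes, the 2 tested muscle genes were within 0.18 to 0.39, and none of the 4 cornea epithelium genes passed the filter.

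Genes of retinal neurons showed no call. The 22 rod genes had a median log2FC of −0.12, with 1 lower at an unadjusted p under 0.05, beside 0.966% of all tested genes. Gnat1, the rod transducin subunit, was at 6852, 6738 and 5217 CPM in Cre− and 5629, 4823 and 4875 CPM in tHet, with overlapping ranges (log2FC −0.29, standard error 0.45, limma adjusted p = 1). In Tet tcKO, Gnat1 was at 258, 1543 and 659 CPM. Guca1a, the rod and cone guanylate cyclase activator, was at 5.71, 5.22 and 6.21 CPM against 2.59, 1.56 and 2.89 CPM, with separate libraries but no call (log2FC −1.16, limma adjusted p = 0.511).

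The 14 cone genes had a median of 0.19 and none at an unadjusted p under 0.05. Arr3, cone arrestin, was at 82.1, 139.7 and 90.1 CPM in Cre− and 138, 148 and 127 CPM in tHet (log2FC 0.44, limma adjusted p = 1). The 18 bipolar genes had a median of −0.25. At an unadjusted p under 0.05, 2 were lower in tHet, beside 0.966% of all tested genes. The 2 became 4 with TMM scaling, 0 without Cre− replicate 3, and 0 without Cre− replicate 1 and tHet replicate 3 together. As reported, the 2 were Cabp5 and Vsx1. These had log2FC values of −0.70 and −0.61, and 5 of the 18 had separate libraries, all lower, beside 5.37% of all tested genes. Horizontal, amacrine and retinal ganglion cell genes had medians of −0.03, −0.14 and 0.11, with none at that p among 5, 12 and 13 tested genes. With 1 library left out, the ganglion cell median ranged from −0.11 without tHet replicate 3 to 0.30 without Cre− replicate 1, and the horizontal cell median from −0.25 without Cre− replicate 2 to 0.21 without Cre− replicate 1.

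Müller glia genes had a median of −0.18 over 14 genes, with none at an unadjusted p under 0.05. Of 10 reactive gliosis genes, 2 were at that p and higher (0 without tHet replicate 3), beside 3.58% of all tested genes. The median of the 10 was 0.05. Gfap, the intermediate filament of reactive glia, was at 25.7, 22.5 and 40.8 CPM in Cre− and 42.2, 46.6 and 179.9 CPM in tHet (log2FC 1.29, limma adjusted p = 0.929). The groups did not overlap, but tHet replicate 3 stood above the others, and without it the log2FC was 0.62. The 13 microglia genes had a median of 0.07 with 1 at that p, and the 17 endothelium and pericyte genes a median of 0.08 with none (−0.02 by DESeq2). The microglia median was −0.03 without tHet replicate 3.

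**Figure D4:**
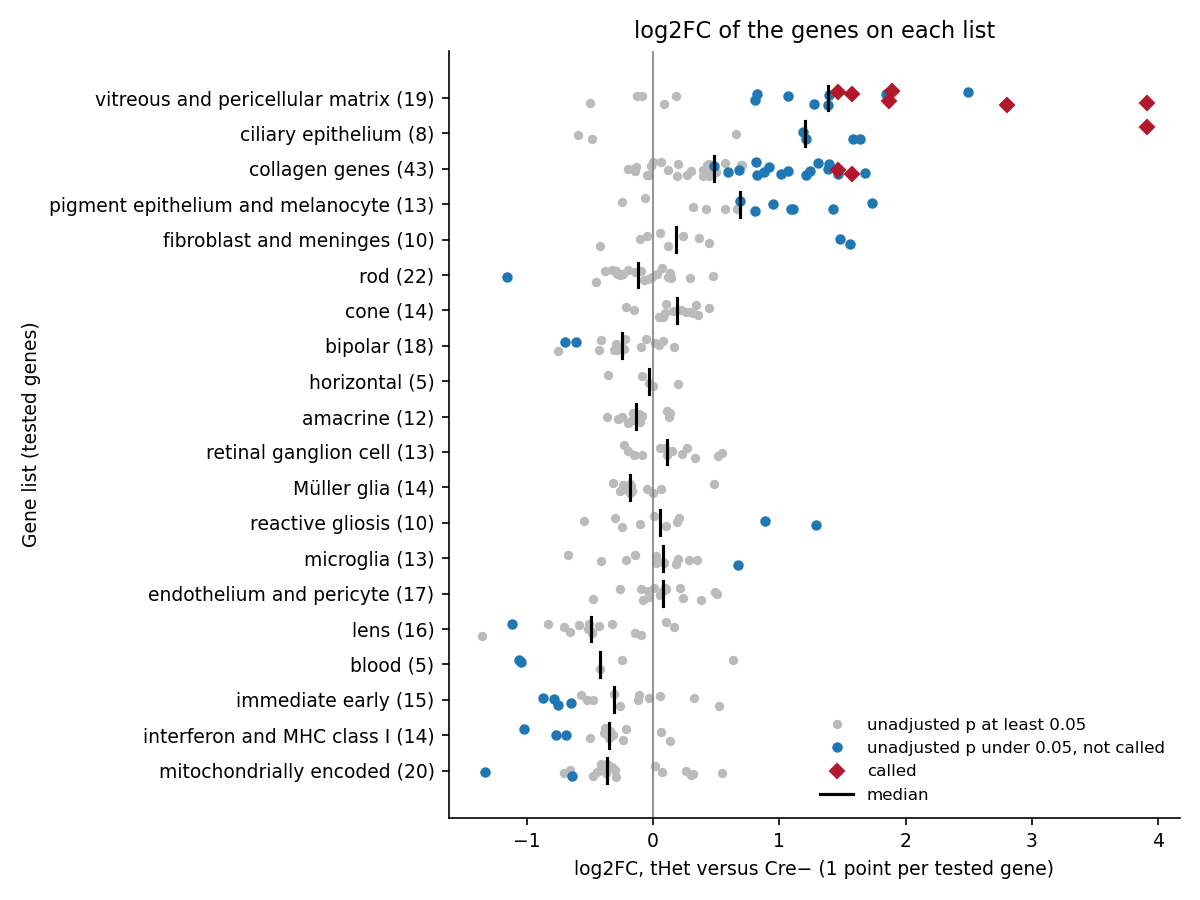
log2FC of tHet versus Cre− (horizontal axis) for each tested gene of 20 lists (rows, with the number of tested genes), with diamonds for called genes, blue circles for an unadjusted p under 0.05, grey circles for the rest and a black line at each median. Called genes appear on the vitreous, ciliary and collagen rows, and the medians of the retinal neuron and glia rows lie between −0.25 and 0.19.

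In the limma fit as reported, no gene was called with a lower level in tHet, while 206 (0.966%) were lower at an unadjusted p under 0.05. Count-based tests on the recovered reads called 5 with edgeR's exact test, 4 with DESeq2 and 0 with edgeR's quasi-likelihood test. Hk2, Gem, Alpk2 and mt-Nd3 were among the lower calls of both the exact test and DESeq2. With TMM scaling of the limma values, the split at an unadjusted p under 0.05 was 823 higher and 683 lower, in place of 764 and 206. The median log2FC of all tested genes was 0.01 on that scale. The split was 2017 higher and 292 lower without tHet replicate 3, and 361 and 129 without Cre− replicate 1.

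Hk2, hexokinase 2 of the aerobic glycolysis of photoreceptors, was at 359.6, 314 and 359.7 CPM in Cre− and 202, 174 and 164 CPM in tHet. The libraries were well apart, and the gene did not pass the limma test (log2FC −0.94, standard error 0.22, limma adjusted p = 0.185). In Tet tcKO it was at 145, 140.5 and 93.1 CPM. Hk2 lies within 5 Mb of Tet3 on chromosome 6.

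Tgm3, a transglutaminase, was at 6.18, 4.01 and 15.0 CPM in Cre− and 1.22, 3.01 and 0.995 CPM in tHet (log2FC −1.90, limma adjusted p = 0.165), with Tet tcKO libraries between 0.238 and 0.843 CPM. Gem, a small GTPase that limits calcium currents, was at 29.0, 22.2 and 32.5 CPM against 14.0, 12.8 and 14.4 CPM (log2FC −0.98, limma adjusted p = 0.214). Its Tet tcKO libraries, between 33.0 and 51.3 CPM, lay on the other side of the Cre− range, and the log2FC of Tet tcKO versus tHet was 1.65 (limma adjusted p = 0.000155). Filip1, a filamin-binding protein, had a log2FC of −1.26 and the mitochondrial complex I gene mt-Nd3 of −1.33. Neither was called by limma as reported (limma adjusted p = 0.221 and 0.278).

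Lists of acute and systemic responses held members with lower levels in tHet, none of them called. Immediate early genes respond within minutes to activity or handling. The median log2FC of 15 such genes was −0.31. At an unadjusted p under 0.05, 4 were lower, beside 0.966% of all tested genes. The 4 became 1 without Cre− replicate 3 and 2 without tHet replicate 1. Dusp1, a phosphatase of that group, was at 13.0, 11.2 and 15.2 CPM in Cre− and 8.21, 6.02 and 8.05 CPM in tHet (log2FC −0.78, limma adjusted p = 0.905). Of 14 interferon and MHC class I genes, with a median of −0.35, 3 were lower at that p, beside the same 0.966%. Among them was Irf7, an inducer of interferon (log2FC −1.02, limma adjusted p = 0.929). The 3 became 1 without Cre− replicate 1 or 3 or tHet replicate 1, and the median ranged from −0.53 without tHet replicate 3 to −0.18 without tHet replicate 2. The 15 circadian clock genes had a median of −0.07 with none at that p (3 lower with TMM scaling). Mitochondrially encoded genes had a median of −0.37 over 20 tested genes, with 2 lower. Without tHet replicate 3 the median was −0.57 with 4 lower, without Cre− replicate 1 it was −0.18 with 1 lower, and without tHet replicate 2 it was −0.09 with 1 lower. These genes took between 11.0% and 16.8% of the reads in Cre− and between 6.92% and 14.0% in tHet. The part of this share in the result was not tested.

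Of 9 progenitor and immature neuron genes, 2 were higher at an unadjusted p under 0.05, beside 3.58% of all tested genes. The median of the 9 was 0.20. With 1 library left out, 1 or 2 were higher, with medians of 0.10 to 0.36. Fabp7, a fatty acid binding protein of progenitors, was at 0.589, 0.509 and 0.810 CPM in Cre−, 1.94, 2.39 and 1.28 CPM in tHet and 173, 99.2 and 119.5 CPM in Tet tcKO. Its tHet libraries lay above those of Cre−, and it did not pass the test (log2FC 1.04, limma adjusted p = 0.556), while tHet and Tet tcKO were far apart. The 5 sex-linked genes had a median of −1.31 and none passed the test. Their median was −0.24 by edgeR's quasi-likelihood test or DESeq2. It was 0.17 without tHet replicate 1, −2.14 with 3 lower at an unadjusted p under 0.05 without tHet replicate 2, and −2.37 with 4 lower without tHet replicate 3. Without Cre− replicate 1 and tHet replicate 3 together, 4 were called lower.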

How the data were processed

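Whole-retina total RNA of P21 mice was depleted of ribosomal RNA and made into stranded libraries, which were sequenced in 1 pool of 9. The authors trimmed reads with Trim Galore 0.6.7, aligned them to mm10 with STAR 2.7.0f, counted them on genes with HTSeq 0.11.2 and deposited CPM values, counts scaled by the library total, for 55487 genes. How strand and overlaps were set in counting is not given in the sources used here. Columns of the authors' own comparisons (fold changes, average levels, p-values, false discovery rates and calls) were not used. Every CPM value above 0 matched a whole number of reads (100% within 0.02 reads), so reads were recovered.

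Genes reaching 0.5 CPM in 3 or more of the 9 libraries entered the test on log2(CPM + 0.5), by limma 3.58.1 under R 4.3.3 (intensity trend, 1 mean per genotype, all 9 libraries, Benjamini-Hochberg adjustment). A gene was called at an adjusted p under 0.01 with a log2FC of 1 or more in size. A fold change on this scale understates that of low genes. With 3 libraries a side, an exact permutation test (two-sided) cannot go below 0.1. No 2 libraries had identical counts.

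Named genes were the called genes, the 12 with the smallest p in each direction among genes with separate libraries and a mean of at least 1 CPM, Tet1, Tet2, Tet3, and from each list the 3 highest and those with an unadjusted p under 0.01. Some genes that the rule also covers are not reported here. Other list members, and CT010467.1, were named after their values were seen. Comparison, lists and rules were chosen with earlier results of these data known. Lists are described by counts and medians. Positions and gene types come from GENCODE M21 (55227 IDs matched), promoters from RefSeq.

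Alternatives were TMM and upper-quartile scaling, pseudocounts of 0.1 and 1, other filters, edgeR 4.0.16 and DESeq2 1.42.0 on recovered reads, a replicate block, only the 6 compared libraries, CT010467.1 left out, each library left out, an adjusted p under 0.05 and no fold threshold. On simulated counts with 200 genes changed by a log2FC of 2, limma called 165 with 2 other calls, edgeR's quasi-likelihood test 163 with 2, its exact test 182 with 9 and DESeq2 178 with 9, all over 21330 genes. These counts were drawn independently for each gene and held no spread shared across the genes of a library. They therefore do not show how the tests behave under such spread. On the real data limma called 9 and the quasi-likelihood test 1. Plots used matplotlib 3.10.9 (Python 3.11.15).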

Additional observations from a re-analysis of the deposited data

How the results depend on the processing

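In place of 9 calls, all higher and 6 of them on the gene lists, there was 1, Abcd4, and 0 on the lists, with TMM scaling, upper-quartile scaling, no filter on low values, edgeR's quasi-likelihood test, only the 6 compared libraries or CT010467.1 left out. edgeR's exact test called 47 (42 higher, 5 lower, 15 on the lists), DESeq2 40 (36, 4 and 17) and an adjusted p under 0.05 called 20, all higher. Leaving out 1 library gave 4 to 17 calls, with 2 to 6 on the lists and 0 lower. Same-numbered libraries of the 2 genotypes shared only a number (r of their deviations −0.35, 0.356 and 0.0357), and the fit with the replicate block called 40 (38, 2 and 13). Chosen after seeing the data, leaving out Cre− replicate 1 with tHet replicate 3 gave 42 (34, 8 and 17) and the Xist covariate 109 (100, 9 and 28). The prior degrees of freedom that limma estimated also differed between these fits. They were 14.1 as reported, 5.48 to 8.69 in the limma fits with 1 call, 16.6 to 29.3 with 1 library left out, 32.7 with the block, 429 with the covariate and infinite without both libraries. Pseudocounts, the other filters and no fold threshold gave 7 to 9 calls. Of 116 named genes, 87 kept their sign in all 21 alternatives, and the 29 that did not were at an unadjusted p of at least 0.05 both as reported and where the sign turned. Depth limits genes near 0.5 CPM most in tHet replicate 2, the library of 9627927 reads.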

Other observations

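Gene classes outside the lists were examined after their values were seen. Of 14745 tested protein-coding genes, 326 were higher and 158 lower in tHet at an unadjusted p under 0.05, with a median log2FC of −0.00 (399 and 612, with a median of −0.06, with TMM scaling). The share of all tested genes at that p was 3.58% higher and 0.966% lower. Of the 6585 tested genes that are not protein-coding, 438 were higher and 48 lower, with a median of 0.27. With 1 library left out, this class ranged from 152 higher with a median of 0.06, without Cre− replicate 1, to 1419 higher with a median of 0.45, without tHet replicate 3. Transcripts annotated as TEC, unspliced candidates that await experimental support, gave 142 higher and 5 lower of 1788, with a median of 0.39. Their summed level was 3665, 9915 and 7488 CPM in Cre− and 10962, 12660 and 6107 CPM in tHet, so the ranges overlapped, and Cre− replicate 1 and tHet replicate 3 were lowest in their genotype. The TEC counts were 126 and 8 with TMM scaling, 577 and 4 without tHet replicate 3, and 26 and 4 with a median of 0.07 without Cre− replicate 1. Small nuclear RNA genes gave 20 higher and 1 lower of 145, with a summed level of 499, 533 and 462 CPM in Cre− and 818, 653 and 481 CPM in tHet. Their median of 0.34 became 0.57, with 42 higher, without tHet replicate 3, and 0.15, with 20 higher, without Cre− replicate 1, and 11 were higher without tHet replicate 1.

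Of 81 tested ribosomal protein genes, none was called and 13 were lower at an unadjusted p under 0.05, beside 0.966% of all tested genes. The libraries of 28 did not overlap, all lower, beside 5.37% of all tested genes. The median log2FC of the 81 was −0.37. Their summed level was 6581, 5457 and 6277 CPM in Cre− and 5171, 3530 and 5926 CPM in tHet, with overlapping ranges. The 13 became 16 with TMM scaling, 35 with a median of −0.51 without tHet replicate 3, 3 without Cre− replicate 1, and 1 with a median of −0.16 without tHet replicate 2. Gm5974, a processed pseudogene, was at 0.0589, 0.763 and 0 CPM in Cre− and at 1.73, 8.10 and 9.81 CPM in tHet (log2FC 3.04, limma adjusted p = 0.0135).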
